A study of Mus musculus with 12 samples.

Results

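The genes described here are 41 mouse genes of DNA replication and S phase, of the 52535 gene symbols counted in this series. They were chosen by name, from what their products are known to do, and not by their level or their response. By role they are 3 genes of origin recognition, 3 of licensing and its control, 6 of the MCM helicase, 7 of helicase activation, 6 of the sliding clamp and its loader, 5 of the polymerases and primase, 4 of single-strand binding and strand maturation, 4 of nucleotide supply and 3 regulators of the G1 to S step.

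Gene expression was measured by mRNA sequencing in 3 T-cell acute lymphoblastic leukemia (T-ALL) cell lines, named 240, 242 and 352, each grown from the thymic tumor of a different mouse. By the labels, each line has 1 library after PKF118-310 and 1 as a control, each read on 2 lanes, so that each group holds 3 libraries. A legend in the study's supplement speaks of duplicate cultures instead, and which holds for the 2 files of a line and group is not settled here. Over all genes with at least 10 counts, the 2 files agreed within sampling noise in lines 240 and 242 (chi-square per degree of freedom 0.98 to 1.02). They agreed less closely in line 352 (2.05 after PKF118-310 and 2.01 in the control). Over the 41 genes alone the values after PKF118-310 and in the control were 1.58 and 1.60 in line 240. They were 1.01 and 0.949 in line 242, and 1.56 and 1.78 in line 352. For these genes the files of lines 240 and 352 thus differed by more than sampling noise. The 2 files were summed and counted as 1 sample, so that p-values rest on the spread between lines. PKF118-310 is an inhibitor that keeps β-catenin from Tcf transcription factors. The controls received placebo. The comparison addresses which transcripts depend on β-catenin/Tcf activity in these cells. All 6 libraries, controls included, come from cells that carry both transgenes: Dlx5, a homeobox gene, and a myristoylated and therefore constitutively active Akt2 kinase, both driven by the Lck promoter, which is active in immature T lymphocytes.

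A cell copies its genome once per division. In G1 the origin recognition complex, with Cdc6 and Cdt1, loads the Mcm2 to Mcm7 ring on DNA. At the start of S phase the Cdc7 kinase with its partner Dbf4, and the cyclin-dependent kinases, turn the ring into an active helicase with Cdc45 and the GINS proteins, and polymerases held by the Pcna clamp then copy both strands. Many of these genes are transcribed when E2F factors are released at the G1 to S step, and their transcripts are abundant in proliferating cells such as leukemic T cells.

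E2F factors bind short GC-rich sites, and the 250 bases before each gene's RefSeq transcription start were searched on both strands for the E2F core letters TTNNCGC, where each N is C or G. A window was at hand for 34 of the 41 genes. The letters stood in the windows of 14 of these 34 genes (41.2%), of 17.5% of the 7905 genes with a window among those tested in 3 lines, and of 9.01% of all 27025 genes with a window. The CCAAT box, searched in the same way, stood in 58.8% of the replication genes' windows, against 41.4% of those of the genes tested and 37.5% of all windows. RefSeq starts can lie inside the gene as the files give it, and for Cdc6, E2f1 and Mcm7 every window did, so that it is not sequence before the gene's first base. Without these 3 genes the E2F letters stood in the windows of 12 of 31 genes (38.7%). This count keeps Cdc7 and Fen1, whose only matching windows belong to RefSeq starts 239 and 248 bases inside the gene. The other window of each held no match. The windows of 3 genes are shown because results for Cdc7 and the MCM genes follow. They lie at chr8:75109259-75109508 on the plus strand (Mcm5), chr1:128359706-128359955 on the minus strand (Mcm6) and chr5:106964311-106964560 on the plus strand (Cdc7, the window of the second of its 2 RefSeq starts, which lies 239 bases inside the gene, whereas the window of the first held no match), all in GRCm38.p6, and capitals mark the E2F core letters.
Mcm5: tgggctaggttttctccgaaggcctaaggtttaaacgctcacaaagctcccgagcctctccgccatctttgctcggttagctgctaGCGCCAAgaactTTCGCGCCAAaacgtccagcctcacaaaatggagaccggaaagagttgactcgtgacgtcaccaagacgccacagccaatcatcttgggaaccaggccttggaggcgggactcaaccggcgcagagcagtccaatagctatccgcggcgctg
Mcm6: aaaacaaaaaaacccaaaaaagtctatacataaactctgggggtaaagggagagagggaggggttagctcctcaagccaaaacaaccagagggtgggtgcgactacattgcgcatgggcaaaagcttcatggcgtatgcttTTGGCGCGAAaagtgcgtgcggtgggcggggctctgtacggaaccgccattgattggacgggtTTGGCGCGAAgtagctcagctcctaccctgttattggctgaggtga
Cdc7: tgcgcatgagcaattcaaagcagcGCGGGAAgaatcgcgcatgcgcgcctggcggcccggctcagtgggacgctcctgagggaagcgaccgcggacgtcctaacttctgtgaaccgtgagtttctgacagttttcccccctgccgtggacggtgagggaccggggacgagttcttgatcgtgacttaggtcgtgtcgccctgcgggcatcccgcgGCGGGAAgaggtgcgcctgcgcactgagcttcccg
The window of Mcm5 held 3 matches, that of Mcm6 held 4 and that of Cdc7 held 2. Matches that overlap are printed as 1 run of capitals, as for both pairs in Mcm6.

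The libraries differed in depth, and 1 stood apart. Summed counts ran from 604984 to 13766638 in PKF118-310 libraries and from 3354980 to 13221186 in controls, with the lowest total in the PKF118-310 library of line 242. In that library 11.8% of counts came from mitochondrially encoded genes, against 1.84% to 3.10% in the other 5. Of 12 T-cell markers, 10 were counted in every PKF118-310 library and 11 in every control. Of the 12, Cd3d, Cd3e, Cd3g, Cd247, Lck, Cd4, Cd8a and Rag1 were counted in every library, whereas Cd5 had 0 to 14 counts. The other markers of the list are Cd8b1, Ptcra and Dntt, and at least 1 of them was absent from a PKF118-310 library. The summed level of the 12 T-cell markers ran from 2076 to 5281 CPM in PKF118-310 libraries and from 3141 to 5167 CPM in controls. Erythroid markers were at or near 0, and Cd79b and Lyz2 had at most 2 counts in any library. Pax5, a B-cell factor, had 7, 43 and 16 counts in PKF118-310 cells of lines 240, 242 and 352, against 1, 0 and 0 counts in the controls. Stromal and epithelial markers summed to 1.61 to 53.8 CPM in PKF118-310 libraries, highest in line 242, and to 0 to 1.18 CPM in controls. Myeloid markers summed to 15.9 to 63.1 CPM in PKF118-310 libraries and 11.7 to 47.8 CPM in controls. The part of depth and of these markers in the results for line 242 was not tested, and values without mitochondrially encoded genes are given beside them.

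All 41 genes were expressed in every library. The lowest count of any of them was 10, for Gins2 in the PKF118-310 cells of line 242, and all 41 passed the filter on low counts. Divided by exonic length, the mean level in controls ran from 10.8 CPM per kilobase (Pola2, a subunit of DNA polymerase α) to 230.1 CPM per kilobase (Pcna, the sliding clamp). On the same scale Rrm2, a subunit of ribonucleotide reductase, stood at 185 CPM per kilobase, and the 6 MCM genes stood between 65.2 (Mcm2) and 149 (Mcm6). Of the 41 genes, 11 overlap a gene with at least 100 counts on the opposite strand, among them Orc2, Lig1, Mcm7, Gins2, Rfc4 and Ccne2, and whether the counting used the strand is not stated, so their reads may be shared.

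Together the 41 genes took 0.900%, 0.427% and 0.786% of all counts in PKF118-310 cells of lines 240, 242 and 352, against 0.833%, 0.863% and 0.823% in the controls of the same lines. The controls lay close together, and only the PKF118-310 library of line 242 lay well below its control. With mitochondrially encoded genes left out of the totals, the shares in line 242 were 0.484% in PKF118-310 cells and 0.889% in the control. In bulk RNA, fewer cells in S phase and fewer transcripts per cell cannot be told apart.

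**Figure D1:**
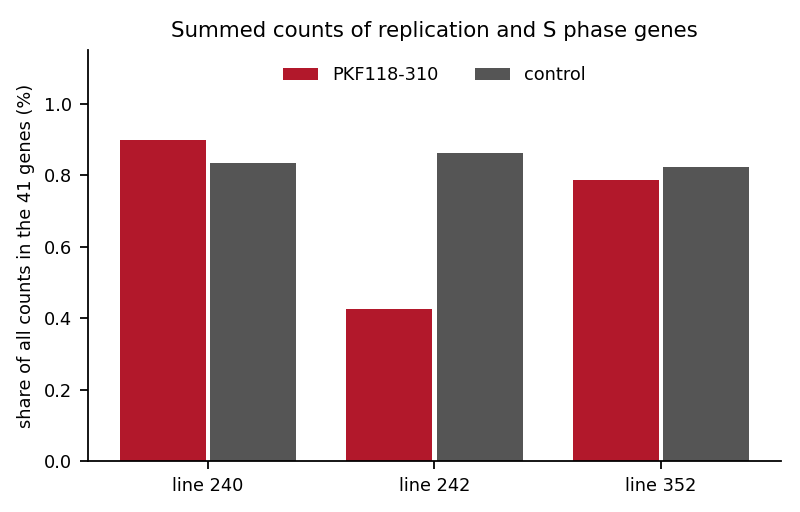
Share of all counts, in percent, that fell on the 41 replication and S phase genes in each library (1 bar per library, PKF118-310 red, control gray). In line 242 the share was 0.427% after PKF118-310 and 0.863% in the control, whereas the bars of lines 240 and 352 lie between 0.786% and 0.900%.

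Over the 3 lines, none of the 41 genes passed the threshold between PKF118-310 and control, which was a Benjamini-Hochberg adjusted p below 0.05 in edgeR's quasi-likelihood test, with lines as blocks. The same held for all 10331 genes tested (0.00% called). Of the 41, 37 had a log2 fold change below 0, and their median was -0.24, beside 0.00 for all genes tested. The range was -0.57 (Cdc7) to 0.12 (Orc1, the largest origin recognition subunit), the smallest adjusted p was 0.842, and 1 gene had an unadjusted p under 0.05, beside 5.52% of all genes tested. That gene was Cdc7 (unadjusted p = 0.0346, edgeR quasi-likelihood), with a log2 fold change of -0.57 ± 0.20 (SE). DESeq2, edgeR's likelihood ratio test and limma voom with sample weights also called 0 of the 41, beside 0.444%, 0.823% and 7.75% of all genes, and at an unadjusted p under 0.05 they counted 2, 2 and 4, beside 5.11%, 8.15% and 28.4%.

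The lines were then read one by one. The log2 ratio of PKF118-310 over control within a line, which has 1 library per group and so no test, was above 0 for 29 of the 41 genes in line 240, for 0 in line 242 and for 13 in line 352. The 41 genes had median ratios of 0.10 (line 240), -0.90 (line 242) and -0.09 (line 352), whereas the median of all genes tested was 0.00 in each line. The ratio was below -1, that is, CPM more than 2-fold lower, for 14 of 41 genes in line 242, beside 10.4% of all genes tested, and for 0 in lines 240 and 352, beside 2.60% and 2.41%. It was above 1 for 0 of 41 genes in any line, beside 2.75%, 17.6% and 1.93% of all genes in lines 240, 242 and 352. No gene was higher in all 3 lines, and 10 of 41 were lower in all 3, beside 17.0% of all genes tested. Lines 240 and 352 had opposite signs for 20 of 41, beside 30.7%, and 11 of 41 were higher in both of them and lower in line 242, beside 18.7%. The ratio of line 242 was the lowest of the 3 lines for 40 of the 41 genes, beside 44.1% of all genes tested; the exception was Gins1, a GINS subunit. Across the 41 genes, the ratios of lines 240 and 352 had a Pearson r of 0.65 and a Spearman rho of 0.63, beside 0.48 and 0.51 across all genes tested, while those of lines 240 and 242 had -0.05 and -0.15. These are descriptions across genes, which are not independent replicates.

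**Figure D2:**
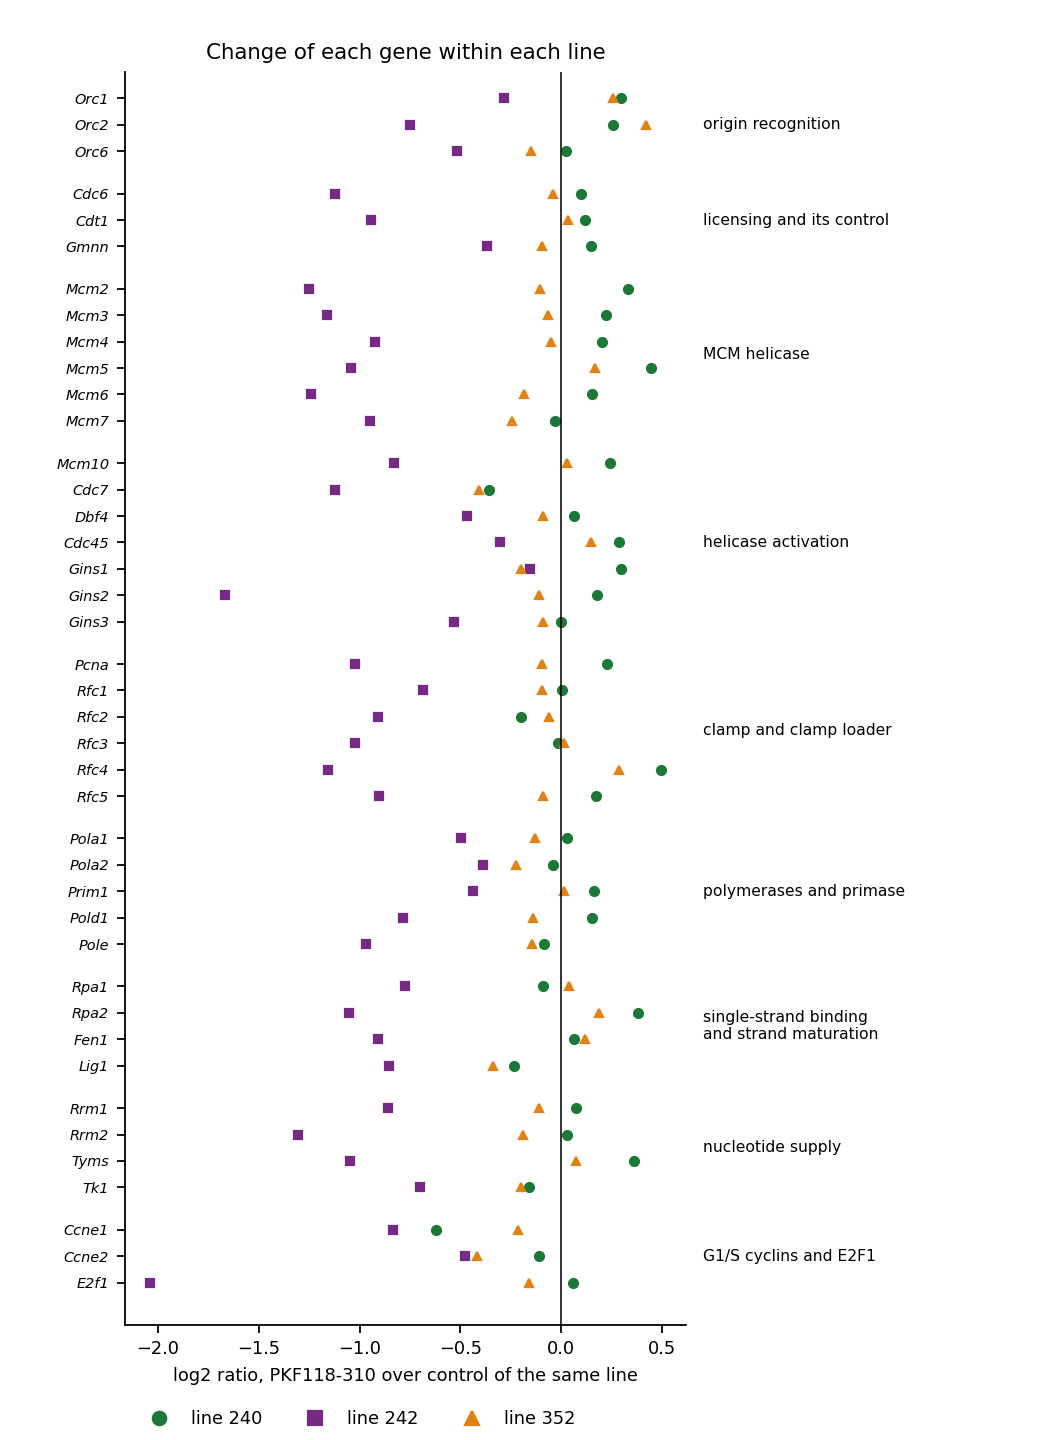
Log2 ratio of PKF118-310 over control within each line (x axis, TMM-scaled CPM with a prior count of 2) for each of the 41 genes (rows, grouped by role). Circles are line 240, squares line 242 and triangles line 352; all 41 squares lie below 0, from -2.04 (E2f1) to -0.16 (Gins1), and the other symbols lie between -0.62 and 0.49.

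**Figure D3:**
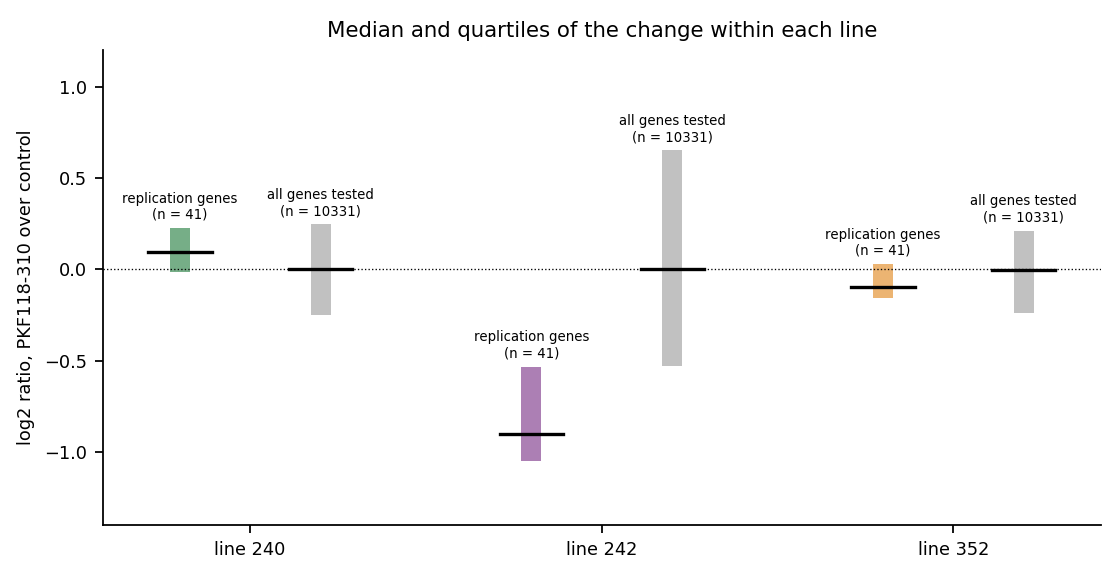
Median (black bar) and quartiles (colored or gray box) of the log2 ratio of PKF118-310 over control in each line, for the 41 replication genes and for all 10331 genes tested. The replication genes of line 242 have a median of -0.90 and lie apart from the gray box center at 0.00, whereas those of lines 240 and 352 have medians of 0.10 and -0.09.

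Counting error alone was then set beside each ratio, as an exact 95% binomial interval. These intervals cover counting error only. In line 242 the interval lay below 0 for 34 of 41 genes and above 0 for 0, beside 20.1% and 22.3% of all genes tested. In line 240 it lay below 0 for 3 genes and above 0 for 13, beside 17.2% and 18.2%. In line 352 it lay below 0 for 20 genes and above 0 for 7, beside 31.2% and 29.6%.

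Because the PKF118-310 library of line 242 stood apart, lines 240 and 352 were also fitted without it. In this fit 1 of the 41 genes passed the threshold, beside 10.9% of the 11760 genes tested (5.01% higher and 5.92% lower). It was Cdc7, which fell after PKF118-310. The other 40 had values on both sides of 0, with 19 of all 41 above and 22 below, and the median was 0.00 on the log2 scale, beside -0.01 for all genes tested. The 95% intervals of the 41 genes reached from -0.70 to 0.64 at most, and for 32 of 41 genes the whole interval lay within 0.5 log2 units of 0. This fit leaves 1 residual degree of freedom, so its intervals and p-values lean on edgeR's moderation of the spread across genes. They do not show that a gene was unchanged. Of the 41 genes, 7 had an unadjusted p under 0.05, Cdc7 among them, beside 25.7% of all genes tested.

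Cdc7 (chromosome 5, 106964322 to 106984432, mm10, plus strand) encodes the kinase that phosphorylates the MCM ring and so fires origins. It had 79.1, 44.5 and 75.6 CPM in PKF118-310 cells of lines 240, 242 and 352, against 101, 97.2 and 100.4 CPM in the controls. The controls lay close together and each lay above every PKF118-310 library, so that the groups did not overlap. In lines 240 and 352 the log2 fold change was -0.39 ± 0.11 (SE; edgeR quasi-likelihood adjusted p = 0.0407, n = 2 lines). The call was lost with no block for the line (adjusted p = 0.9997), with library totals as the scale (adjusted p = 0.0549), with DESeq2 (0.379), with a filter of at least 10 counts in every library (0.0564), with lane 2 alone (0.110) and with line 352 halved in depth (0.0663). The call was kept with DESeq2 size factors (adjusted p = 0.0278), the likelihood ratio test (0.0204), limma voom (0.0258), no filter (0.0144) and lane 1 alone (0.0345). The direction stayed lower in each of these settings. Dbf4, the regulatory subunit that activates Cdc7, had 151, 135 and 119 CPM in PKF118-310 cells against 144, 187 and 126 CPM in the controls, and its log2 fold change in lines 240 and 352 was -0.03 ± 0.10.

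Only 1 other gene of the 41 had groups that did not overlap over the 3 lines, so that 2 were lower without overlap, beside 2.87% of all genes tested, and 0 were higher, beside 3.29%. This was Lig1 (chromosome 7, 13277283 to 13311433), the ligase that joins Okazaki fragments. Lig1 had 302, 171 and 257 CPM in PKF118-310 cells against 356, 308 and 325 CPM in the controls. Its log2 fold change in lines 240 and 352 was -0.29 ± 0.11 (edgeR quasi-likelihood adjusted p = 0.110), so that it did not pass. Of the alternatives, it passed only with no filter on low counts (edgeR quasi-likelihood adjusted p = 0.0425).

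**Figure D4:**
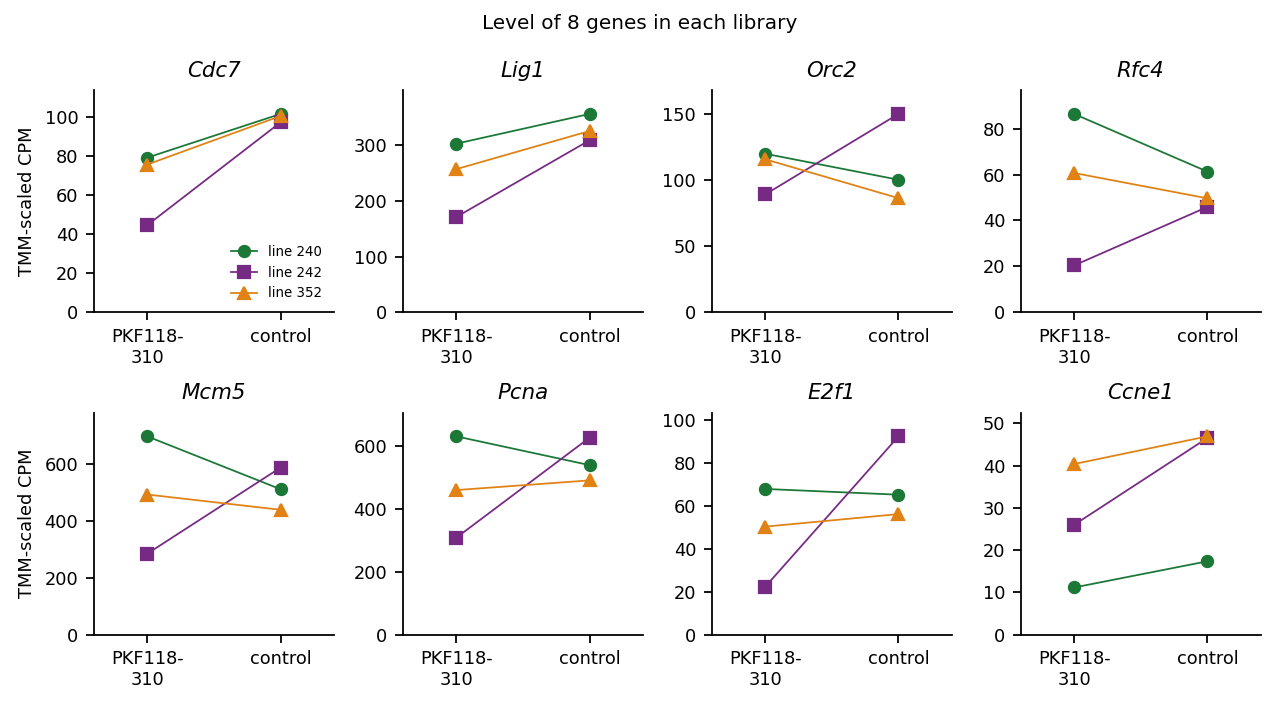
Level of 8 genes in each library in TMM-scaled CPM (y axes from 0; PKF118-310 left, control right; 1 line and symbol per cell line). Cdc7 and Lig1 are lower after PKF118-310 in each line, with no overlap between groups. Cdc7, Lig1, Rfc4, Mcm5, Pcna and E2f1 all have their lowest value in the PKF118-310 library of line 242.

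To ask whether the effect in line 242 differed from that in the other 2 lines, the difference itself was tested with an interaction term. This test was added after line 242 had been seen to stand apart, and its p-values take no account of that choice. The effect in line 242 rests on 1 pair of libraries, assumed to vary like the rest, and the spread comes from lines 240 and 352 alone, with 1 residual degree of freedom before edgeR's moderation across genes. The p-values for line 242 below are therefore descriptions of these libraries. The effect was lower in line 242 for 23 of the 41 genes and higher for 0, beside 10.6% and 11.8% of the 10331 genes tested. The median difference of the 41 was -0.84 on the log2 scale, beside 0.02 for all genes. The count was 16 from lane 1 alone, 24 without mitochondrially encoded genes, and 6 with DESeq2, beside 6.75%, 11.7% and 2.20% of all genes. With line 240 or line 352 set against the other 2 in the same way, the median difference of the 41 genes was 0.44 and 0.30. There line 242 and the remaining line set the spread, so that a lack of calls could not be read and their number is not given. By role, the difference passed for all 6 MCM genes, 4 of 6 clamp and clamp loader genes, 3 of 4 genes each of strand maturation and nucleotide supply, 2 of 3 licensing genes, 2 of 7 genes of helicase activation, and 1 each of the origin recognition, polymerase and G1 to S genes. The 14 genes with E2F core letters in their window had a median log2 ratio of -0.99 in line 242 (range -1.30 to -0.29), and the 20 genes without had -0.83 (range -2.04 to -0.30), so that the ranges overlapped. The medians with and without were 0.07 and 0.13 in line 240, and -0.07 and -0.09 in line 352.

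**Figure D5:**
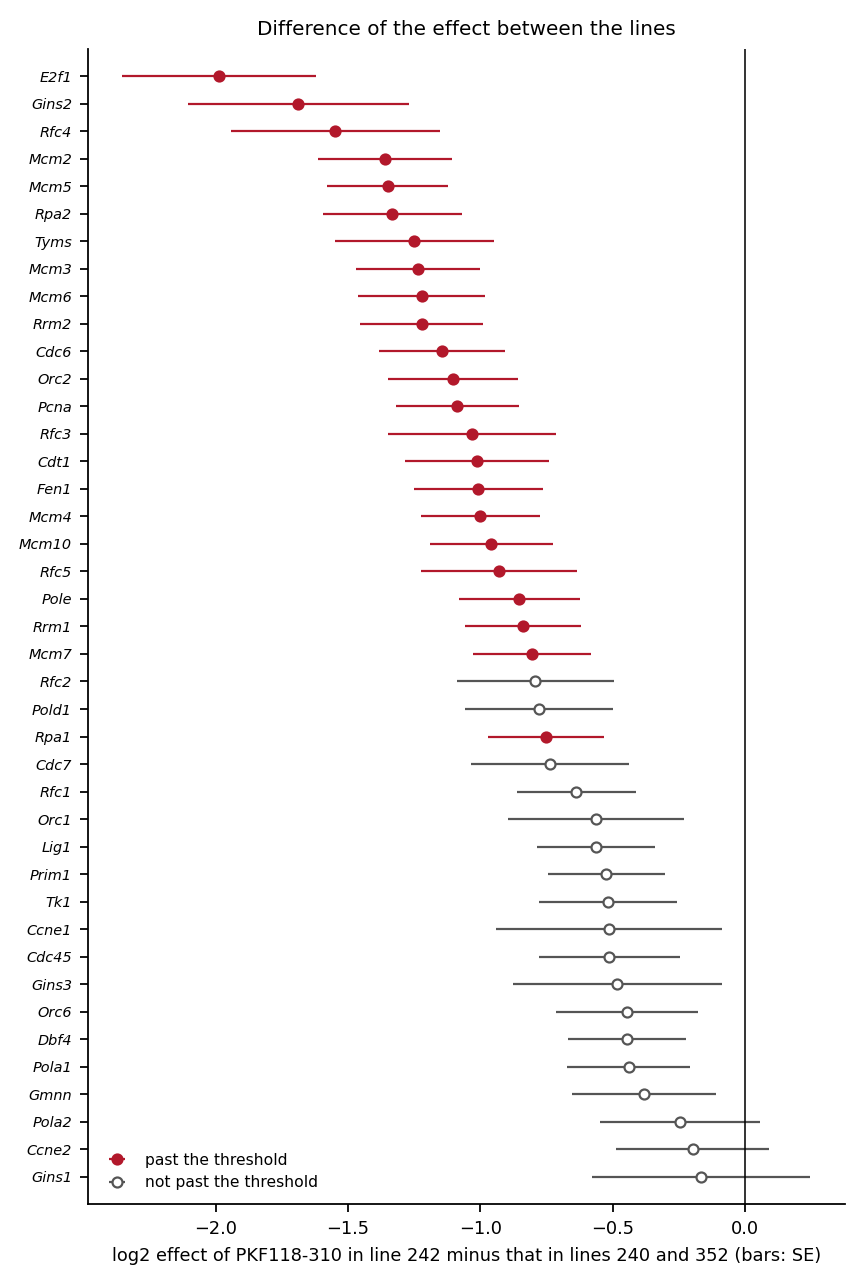
Difference of the log2 effect of PKF118-310, line 242 minus lines 240 and 352 (x axis, bars are SE), for the 41 genes sorted by value. Filled red points passed the threshold (23 genes) and open gray points did not (18 genes); all lie below 0, from -1.99 (E2f1) to -0.17 (Gins1).

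Among the origin recognition genes, Orc2, a core subunit of the complex (chromosome 1, 58462771 to 58505109), had 119.9, 89.1 and 116 CPM in PKF118-310 cells of lines 240, 242 and 352, against 100.2, 150.0 and 86.3 CPM in the controls. The PKF118-310 value was the higher of the pair in lines 240 and 352 and the lower in line 242. In lines 240 and 352 the log2 fold change of Orc2 was 0.35 ± 0.11 (edgeR quasi-likelihood adjusted p = 0.0597), just short of the threshold. It passed with the likelihood ratio test (0.0404), with limma voom (0.0392) and with no filter (0.0478), and with none of the other alternatives. The effect in line 242 was lower, with a log2 difference of -1.10 ± 0.25 (SE; edgeR quasi-likelihood adjusted p = 0.00869). Orc6, the smallest subunit, had 98.2, 72.4 and 74.7 CPM after PKF118-310 against 96.8, 104 and 82.8 CPM in the controls, and its log2 fold change in lines 240 and 352 was -0.08 ± 0.11.

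Of the licensing genes, Cdt1, which brings the MCM ring to the origin, had 91.8, 55.7 and 154 CPM in PKF118-310 cells against 84.6, 107 and 150.2 CPM in the controls. Line 352 was high in both groups, and line 242 had the lowest value of all 6 libraries after PKF118-310. The effect on Cdt1 was lower in line 242, with a log2 difference of -1.01 ± 0.27 (edgeR quasi-likelihood adjusted p = 0.0204). Gmnn, which encodes geminin, the protein that binds Cdt1 and blocks relicensing, had 101, 76.1 and 80.5 CPM after PKF118-310 against 91.3, 98.4 and 86.0 CPM in the controls, and its effect in line 242 was not called different (-0.38 ± 0.27, adjusted p = 0.344). Cdc6, which loads the ring together with Cdt1, had a difference of -1.14 ± 0.24 (adjusted p = 0.00609), and in lines 240 and 352 the 3 genes had log2 fold changes of 0.01 to 0.06.

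The 6 MCM genes, whose products form the ring that unwinds DNA, had log2 ratios of -0.03 (Mcm7) to 0.45 (Mcm5) in line 240, -1.25 (Mcm2) to -0.93 (Mcm4) in line 242 and -0.24 (Mcm7) to 0.17 (Mcm5) in line 352. Mcm2 (chromosome 6, 88883474 to 88898780) had 490.2, 208 and 442 CPM in PKF118-310 cells of lines 240, 242 and 352, against 389, 495 and 476 CPM in the controls. Mcm3 (chromosome 1, 20802968 to 20820312) had 490.2, 191 and 402 CPM after PKF118-310 against 421, 428 and 421 CPM in the controls. Mcm4 (chromosome 16, 15623897 to 15637400) had 468, 262 and 331 CPM after PKF118-310 against 407, 497 and 343 CPM in the controls. For each of these, line 240 was higher after PKF118-310, line 352 was slightly lower, and line 242 stood below all the other libraries. Mcm5 (chromosome 8, 75109569 to 75128439) had 696, 284 and 492 CPM in PKF118-310 cells against 510.3, 586 and 438 CPM in the controls. Mcm6 (chromosome 1, 128331590 to 128359664) had 797, 297 and 587 CPM after PKF118-310 against 717, 702 and 667 CPM in the controls, and Mcm7 (chromosome 5, 138164583 to 138172422) had 458, 249 and 383 CPM after PKF118-310 against 468, 479.5 and 454 CPM in the controls. Mcm7 was lower after PKF118-310 in each line, yet its groups overlapped, since line 240 after PKF118-310 lay above the control of line 352.

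In lines 240 and 352 the MCM genes ranged from a log2 fold change of -0.14 ± 0.12 (Mcm7) to 0.30 ± 0.12 (Mcm5, edgeR quasi-likelihood adjusted p = 0.137), and none passed. The effect in line 242 was lower for all 6, with log2 differences of -1.36 ± 0.25 for Mcm2, -1.35 ± 0.23 for Mcm5, -1.24 ± 0.24 for Mcm3 and -1.22 ± 0.24 for Mcm6. Those of Mcm4 and Mcm7 were -1.0 ± 0.22 and -0.81 ± 0.22, and the largest adjusted p of the 6 was 0.0230 (edgeR quasi-likelihood). Mcm10, which helps to activate the ring and is not part of it, had a difference of -0.96 ± 0.23 (adjusted p = 0.0125).

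Besides Cdc7, the helicase activation genes had log2 fold changes of -0.06 to 0.21 in lines 240 and 352. Cdc45, a subunit of the active helicase, had 116, 72.4 and 87.9 CPM in PKF118-310 cells against 94.8, 89.3 and 79.5 CPM in the controls, with a log2 fold change of 0.21 ± 0.11. The GINS genes differed among themselves in line 242, where the ratio was -1.67 for Gins2, -0.53 for Gins3 and -0.16 for Gins1. Gins2 rested there on 10 counts against 190 in the control. Its difference between the lines passed (-1.69 ± 0.42, edgeR quasi-likelihood adjusted p = 0.0137), while that of Cdc7 did not (-0.74 ± 0.30, adjusted p = 0.0935).

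Pcna (chromosome 2, 132249162 to 132253314), the ring that tethers polymerases to DNA, had 631, 308 and 459.9 CPM in PKF118-310 cells of lines 240, 242 and 352, against 539, 626 and 491 CPM in the controls. It was near its control in lines 240 and 352 (0.06 ± 0.12) and lower in line 242, with a log2 difference of -1.09 ± 0.23 (edgeR quasi-likelihood adjusted p = 0.00685). Rfc4, a subunit of the loader that opens the Pcna ring (chromosome 16, 23113943 to 23127737), had 86.4, 20.4 and 60.7 CPM in PKF118-310 cells against 61.3, 45.9 and 49.6 CPM in the controls. Its PKF118-310 libraries included both the highest and the lowest of the 6 values, and the lowest, in line 242, came from 11 counts. In lines 240 and 352 Rfc4 had the highest log2 fold change of the 41 genes, 0.38 ± 0.12 (edgeR quasi-likelihood adjusted p = 0.0697). It passed with the likelihood ratio test (0.0473) and with lane 1 alone (0.0386), and with none of the other alternatives. Rfc2, another subunit, had 89.9, 46.4 and 86.2 CPM after PKF118-310 against 103, 87.4 and 89.9 CPM in the controls, with a log2 fold change of -0.13 ± 0.11. The other 3 loader subunits, Rfc1, Rfc3 and Rfc5, had log2 fold changes of -0.05 to 0.02 in lines 240 and 352.

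The polymerase and primase genes had log2 fold changes of -0.15 to 0.08 in lines 240 and 352. Prim1, the catalytic subunit of primase, had 190.4, 139 and 94.4 CPM in PKF118-310 cells against 169.9, 189 and 93.4 CPM in the controls. Pola2, the second subunit of polymerase α, had 99.2, 50.1 and 86.7 CPM after PKF118-310 against 102, 65.7 and 101 CPM in the controls. For both the lines differed more than the treatments. Pold1, the catalytic subunit of polymerase δ, had 163, 66.8 and 221 CPM after PKF118-310 against 147, 115 and 244 CPM in the controls, with line 352 highest and line 242 lowest in both groups. Pole, the catalytic subunit of polymerase ε, was the 1 gene of this role whose effect was lower in line 242 (-0.85 ± 0.23, edgeR quasi-likelihood adjusted p = 0.0204), and Pola1, the catalytic subunit of polymerase α, had -0.44 ± 0.23.

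Of the single-strand binding and maturation genes, Rpa2, a subunit of the protein that coats single-stranded DNA, had 134, 66.8 and 119.8 CPM in PKF118-310 cells against 103, 139 and 105 CPM in the controls. Its log2 fold change in lines 240 and 352 was 0.27 ± 0.11 (edgeR quasi-likelihood adjusted p = 0.133), and its effect in line 242 was lower, with a log2 difference of -1.33 ± 0.26 (adjusted p = 0.00468). Fen1, the nuclease that trims Okazaki fragments, and Rpa1 also passed, with differences of -1.01 ± 0.24 and -0.75 ± 0.22. Lig1, which was lower in each line, did not (-0.56 ± 0.22, adjusted p = 0.0875).

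Of the nucleotide supply genes, 3 of 4 had a lower effect in line 242. Tyms, thymidylate synthase, had 101, 48.3 and 110.1 CPM in PKF118-310 cells against 78.4, 100 and 104 CPM in the controls. Tk1, the thymidine kinase of the salvage pathway, had 93.8, 68.7 and 126 CPM after PKF118-310 against 105, 112 and 144 CPM in the controls. Tyms was higher after PKF118-310 in lines 240 and 352 and lower in line 242, whereas Tk1 was lower in each line, with overlapping groups. The effect in line 242 was lower, with a log2 difference of -1.25 ± 0.30 for Tyms, -1.22 ± 0.23 for Rrm2 and -0.84 ± 0.22 for Rrm1, the large subunit of ribonucleotide reductase (edgeR quasi-likelihood adjusted p = 0.0122, 0.00387 and 0.0173), and the value for Tk1 was -0.52 ± 0.26 (adjusted p = 0.176).

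E2f1 (chromosome 2, 154559407 to 154569892), a transcription factor that switches on many replication genes, had 67.9, 22.3 and 50.4 CPM in PKF118-310 cells of lines 240, 242 and 352, against 65.2, 92.5 and 56.2 CPM in the controls. It was near its control in lines 240 and 352 (-0.07 ± 0.13). In line 242 it had 12 counts against 294 and the lowest ratio of the 41 genes (-2.04), and its effect was lower there, with a log2 difference of -1.99 ± 0.37 (edgeR quasi-likelihood adjusted p = 0.00340). Ccne1 and Ccne2 encode the E cyclins that drive entry into S phase with Cdk2. Ccne1 (chromosome 7, 38097984 to 38107534) had 11.2, 26.0 and 40.4 CPM in PKF118-310 cells against 17.4, 46.5 and 46.9 CPM in the controls. Ccne2 (chromosome 4, 11191351 to 11204779) had 88.0, 70.5 and 51.3 CPM after PKF118-310 against 95.01, 98.4 and 68.8 CPM in the controls. Both were lower after PKF118-310 in each line, with overlapping groups, and in lines 240 and 352 their log2 fold changes were -0.33 ± 0.17 and -0.29 ± 0.12 (edgeR quasi-likelihood adjusted p = 0.234 and 0.164). Neither differed past the threshold in line 242 (adjusted p = 0.421 and 0.715).

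Levels were also compared between the lines, over both treatments. In edgeR's quasi-likelihood test 0 of 41 genes differed between the 3 lines past the threshold, beside 5.32% of the genes tested. DESeq2 called 3, the likelihood ratio test 5 and limma voom 10, beside 16.1%, 27.9% and 42.4% of all genes. The smallest adjusted p belonged to Ccne1 (edgeR quasi-likelihood, 0.0553), Pold1 (0.0932), Prim1 (0.0994) and Pola2 (0.116). Ccne1 was low in line 240, with 11.2 CPM after PKF118-310 and 17.4 CPM in the control, and between 26.0 and 46.9 CPM in the other 4 libraries. When lines 352 and 240 alone were compared over both treatments, 19 of the 41 genes passed, beside 44.7% of all genes tested, with 5 higher and 14 lower in line 352, beside 24.8% and 19.9%. The log2 difference of line 352 minus line 240 was 1.62 for Ccne1, 0.79 for Cdt1 and 0.59 for Pold1, against -0.93 for Prim1 and -0.61 for Ccne2.

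A further 62 genes of replication and the G1 to S step, listed by function, were read from the same fits. Over 3 lines 0 of the 61 tested passed, beside 0.00% of all genes tested, with a median log2 fold change of -0.28. At an unadjusted p under 0.05 there were 6, beside 5.52% of all genes tested. In lines 240 and 352, 4 of 62 rose and 6 fell, beside 5.01% and 5.92% of all genes tested. The effect in line 242 minus that in lines 240 and 352 had a median of -0.75 on the log2 scale over the 61, beside 0.02 for all genes tested. By group, the median difference was -1.13 for 8 genes of chromatin assembly at forks, -0.88 for 7 of fork protection and -0.25 for 12 origin and helicase factors.

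The smallest adjusted p of these genes in lines 240 and 352 belonged to 2 inhibitors of the cell cycle. Cdkn1a, the p21 inhibitor of cyclin-dependent kinases and a classical target of p53, had 157, 908 and 529 CPM in PKF118-310 cells of lines 240, 242 and 352, against 54.1, 43.1 and 284 CPM in the controls. It was higher after PKF118-310 in each line, with the largest gap in line 242. It rose in lines 240 and 352 by a log2 fold change of 1.16 ± 0.14 (edgeR quasi-likelihood adjusted p = 6.3e-04), and its effect was higher again in line 242 by 3.23 ± 0.28. Cdkn1b, the p27 inhibitor, had 145, 113 and 124 CPM in PKF118-310 cells against 214, 94.3 and 219.6 CPM in the controls, and fell in lines 240 and 352 (-0.71 ± 0.11, adjusted p = 0.00223). Samhd1, which degrades deoxynucleotides, had 2.55, 27.8 and 10.1 CPM after PKF118-310 against 0.744, 0.629 and 1.84 CPM in the controls and rose in lines 240 and 352 (2.31 ± 0.46, adjusted p = 0.00829), where its controls held 3 and 25 counts.

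A further 5 of these genes had the next smallest p in lines 240 and 352, by the same test. Pold4, the small subunit of polymerase δ, had 16, 5 and 159 counts in PKF118-310 cells of lines 240, 242 and 352, against 69, 7 and 283 counts in the controls. It fell in lines 240 and 352 (-1.16 ± 0.25), and its effect was higher in line 242, on few counts. E2f7, a repressor of the E2F family, fell (-0.57 ± 0.14). Ticrr, which recruits Cdc45 to origins, fell (-0.46 ± 0.11), as did Fbxo5, an inhibitor of the anaphase-promoting complex (-0.45 ± 0.12). Recql4, a helicase needed for initiation, rose (0.45 ± 0.12). The calls left over were Cdc25a, a phosphatase that activates Cdk2, which rose (0.40 ± 0.11), and Dck, a deoxynucleoside kinase, which fell (-0.42 ± 0.11). These last 2 genes were named after their values were seen.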

How the data were processed

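Messenger RNA of 3 cell lines was sequenced, each line after PKF118-310 and as a control. The counts per gene deposited by the authors are raw, with no normalization, and come in 1 file per library and lane. According to the processing notes of the submitters, HISAT2, HTSeq, edgeR and mm10 were used, whereas the study's methods name TopHat. Not given in the sources used here are the versions, the annotation and the counting of reads with several matches. The 2 lanes of a library, as the labels name them, were summed, giving 6 libraries.

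Counts were analysed with edgeR 4.0.16 in R 4.3.3 (filterByExpr, TMM scaling, quasi-likelihood F test, cell line as a block, Benjamini-Hochberg adjustment over all genes tested, threshold 0.05). Each line comes from a different mouse, so its libraries were paired. Deviations from the group means were correlated within a line (correlations 0.66, 0.32 and 0.80 in lines 240, 242 and 352). P-values measure the spread between lines with 1 library per group. CPM are TMM-scaled, within-line log2 ratios use a prior count of 2, and log2 fold changes are PKF118-310 over control. The scripts were tested on simulated data. Alternatives were no block, DESeq2 size factors, library totals, DESeq2 1.42.0, the likelihood ratio test, limma 3.58.1 voom with sample weights, other filters, single lanes, halved counts of line 352 and each line left out. The interaction test and the fits without mitochondrially encoded genes were added after the data were seen.

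The genes, lists and tests were chosen with earlier results of these data known. All 41 genes are accounted for by role. Values per library are given for genes past the threshold, the highest and lowest of each role in lines 240 and 352, the MCM genes, Pcna, the E cyclins and E2f1, and the 4 with the smallest p between lines. Of the other replication genes, the 8 with the smallest p were named. Exonic lengths are from GENCODE vM21, gene positions were taken from the files (mm10), and promoter windows are RefSeq sequence of GRCm38.p6, where 7 of the 41 genes had no entry. 1 marker gene and the sum of its list are not reported here.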

Additional observations from a re-analysis of the deposited data

Results flagged for a closer look

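The effect of PKF118-310 in line 242 differed from that in lines 240 and 352 for the genes below, each past the threshold in the interaction test (edgeR quasi-likelihood, adjusted p below 0.05 over 10331 genes, of which 10.6% were lower and 11.8% higher in line 242). Line 242 was singled out after it had been seen to stand apart, its effect rests on 1 pair of libraries, and the spread comes from lines 240 and 352 alone, so that the test is a description of these libraries. The values are log2 effects in line 242 minus those in lines 240 and 352. The PKF118-310 library of line 242 held 604984 counts and 11.8% mitochondrially encoded counts, and the part of either in these differences was not tested beyond leaving mitochondrially encoded genes out, which gave 24 of the 41 genes lower.

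The MCM genes had -1.36 (Mcm2), -1.24 (Mcm3), -1.0 (Mcm4), -1.35 (Mcm5), -1.22 (Mcm6) and -0.81 (Mcm7). Genes before and at helicase activation had -1.10 (Orc2), -1.14 (Cdc6), -1.01 (Cdt1), -0.96 (Mcm10) and -1.69 (Gins2). The clamp, its loader and polymerase ε had -1.09 (Pcna), -1.03 (Rfc3), -1.55 (Rfc4), -0.93 (Rfc5) and -0.85 (Pole). The genes of strand binding and maturation had -0.75 (Rpa1), -1.33 (Rpa2) and -1.01 (Fen1), and those of nucleotide supply -0.84 (Rrm1), -1.22 (Rrm2) and -1.25 (Tyms). E2f1 had -1.99, the lowest of the 41 genes. In the other direction, Cdkn1a had 3.23, Cdkn1b 0.97 and Pold4 3.22.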

How the results depend on the processing

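Of the 41 genes, the number called over 3 lines stayed at 0 in every alternative that kept all 3 lines. With a line left out, members called lower ran from 0 to 1 and genes called ran from 0 (lower) and 3 (higher) without line 352 to 696 and 589 without line 242, while the median of the 41 ran from -0.47 to -0.00. Over all genes, DESeq2 called 35 higher and 10 lower, the likelihood ratio test 56 and 29, limma voom 327 and 474, and no filter 260 and 52.

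In lines 240 and 352, genes called higher and lower were 589 and 696. They were 107 and 158 with DESeq2, 315 and 403 with at least 10 counts in every library, 349 and 404 with lane 2 alone, and 283 and 352 with line 352 halved. Replication genes called lower were 0 with DESeq2, library totals, that filter, lane 2 alone and line 352 halved, and 2 with no filter, and those called higher were 2 with the likelihood ratio test and 1 with limma voom, no filter or lane 1 alone. With no replicate block, 0 genes were called in either direction, and Cdc7 had a log2 fold change of -0.39 (edgeR quasi-likelihood adjusted p = 0.9997). Its call was also lost in several settings that kept each PKF118-310 library paired with the control of its line. For the interaction, DESeq2 called 6 of the 41 genes.

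Between the 3 lines, DESeq2 called 3 of the 41 genes, the likelihood ratio test 5 and limma voom 10, beside 16.1%, 27.9% and 42.4% of all genes tested. No filter gave 4, beside 10.5%, and lane 1 and lane 2 alone gave 1 each, beside 8.87% and 6.33%. With a line left out the count ran from 0 without line 352 to 19 without line 242, beside 2.05% and 44.7% of all genes tested. The cause of these changes was not tested. Depth limits line 242 most: the 41 genes had 10 to 213 counts in its PKF118-310 library, and its effect rests on 1 pair of libraries.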
